A study of Equus caballus with 14 samples.

Results

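The genes described here are the nuclear genes of oxidative phosphorylation, the chain of complexes in the inner mitochondrial membrane that turns the oxidation of NADH and succinate into ATP. They were taken by their symbols: subunits of complex I (Nduf), complex II (Sdh), complex III (Uqcr and Cyc1), cytochrome c (Cycs), complex IV (Cox) and complex V (Atp5), together with assembly factors whose symbols fall under the same families. Of the 24493 probes on the microarray, 89 carried such a symbol, and 71 of these (13 equine and 58 mouse probes, for 67 of the 12082 genes with a symbol) had values from at least 5 horses and are the members described below. The equine members cover complex V and its assembly factors only, and every other complex was read on mouse probes hybridized with horse RNA.

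Polysaccharide storage myopathy (PSSM) is a glycogen storage disease of horse muscle, diagnosed here by amylase-resistant polysaccharide in the fibers. Muscle of the gluteus medius was biopsied in adult Norman Cob horses. The 7 PSSM horses of the labels were numbered 5, 12, 32, 38, 42, 44 and 54. The study listed 5 of them (12, 32, 38, 42 and 54) as heterozygous (GA) for the GYS1 mutation and horse 44 as homozygous (AA), at 4 to 17 years of age, while horse 5 had no entry in that list and its genotype and age are not given here. The list holds instead a horse 49, homozygous (AA) and absent from the labels, and whether it is the animal labelled horse 5 is not known. The reference was 1 pool of RNA from 6 wild type (GG) control horses aged 6 to 16 years, hybridized on all 14 microarrays. Each PSSM muscle was labelled once in Cy3 and once in Cy5. The pool is 1 control sample, so the spread between control horses enters no error given here. Whole biopsies were read, so fewer muscle fibers and less RNA per fiber cannot be told apart.

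In skeletal muscle these complexes supply most of the ATP of oxidative fibers. Complex I and complex II pass electrons to ubiquinone, complex III passes them on to cytochrome c, complex IV reduces oxygen, and complex V, the ATP synthase, uses the proton gradient that the others build. Most complexes combine subunits encoded by the mitochondrial genome with subunits encoded in the nucleus, which are translated in the cytosol and imported. Around a small set of catalytic or core subunits, complexes I and IV carry many small accessory subunits, which hold no redox center.

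All values are log2 ratios of PSSM muscle over the control pool, averaged over the microarrays of a horse, and n counts horses. The means were tested against 0 with limma, with Benjamini-Hochberg adjustment over the 361 equine and the 13067 mouse probes tested, separately, and a probe was called down- or up-regulated at an adjusted p under 0.05. Among the equine members, 2 of 13 were down-regulated, where 19.9% of all equine probes were, and 0 were up-regulated, against 4.43% of all equine probes. Among the mouse members, 1 of 58 was down-regulated (1.36% of all mouse probes) and 0 were up-regulated (0.452%). These shares lie near the background, and without adjustment the picture differed: limma gave an unadjusted p under 0.05 with a lower level in 6 of the 13 equine members, against 27.1% of all equine probes, and in 27 of the 58 mouse members (46.6%), against 10.6% of all mouse probes. No member was higher at this level, where 10.8% of all equine and 8.56% of all mouse probes were.

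The means of 60 of the 71 members lay below 0, 12 of 13 on equine probes and 48 of 58 on mouse probes, where 58.4% of all equine and 51.9% of all mouse probes did. The median of the member means was -0.28 on the equine and -0.33 on the mouse probes, against -0.08 and -0.01 over all tested probes. Another 14 mouse members had an adjusted p from 0.052 to 0.0887 with a lower level, so that 25.9% of the mouse members lay below 0 at an adjusted p under 0.1, against 3.44% of all mouse probes. On the equine probes this share was 30.8% (4 of 13), near the 24.7% of all equine probes. The 14 mouse members were Ndufs8, Ndufb2, Ndufb4, Ndufa3, Ndufc2, Ndufb5, Ndufa2, Ndufa8, Ndufb7 and Ndufb3 of complex I, Cox7c and Cox6b1 of complex IV, Atp5g1 of complex V and the copper chaperone Cox17. They were picked out after their values had been seen.

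The low values were not shared by all horses. Horses 5, 12 and 32 are set apart from horses 38, 42, 44 and 54 below because of these member values. A gap between them in a single member is therefore no support for the split. The share of all probes with such a gap is not given here. The median over all members was -0.07 in horse 5, -0.25 in horse 12 and -0.06 in horse 32, against -0.44 in horse 38, -0.52 in horse 42, -0.44 in horse 44 and -0.50 in horse 54. Over all tested mouse probes the median stayed between -0.03 and 0.03 in every horse. Of the mouse members, 1.75%, 13.8% and 1.75% lay below -0.5 in horses 5, 12 and 32, where 4.60%, 8.05% and 6.53% of all tested mouse probes did. In horses 38, 42, 44 and 54 the shares of the mouse members were 47.2%, 50%, 51.8% and 48.3%, against 10.9%, 6.96%, 16.7% and 15.6% of all tested mouse probes. Of the 13 equine members, 1, 3 and 0 lay below -0.5 in horses 5, 12 and 32, and 5, 7, 4 and 8 in horses 38, 42, 44 and 54. Over all tested equine probes these shares were 11.1%, 18.3% and 15.6% in the first 3 horses and 24.1%, 19.3%, 28.4% and 28.1% in the others, so that in horse 44 the equine members (30.8%) were near the background.

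**Figure D1:**
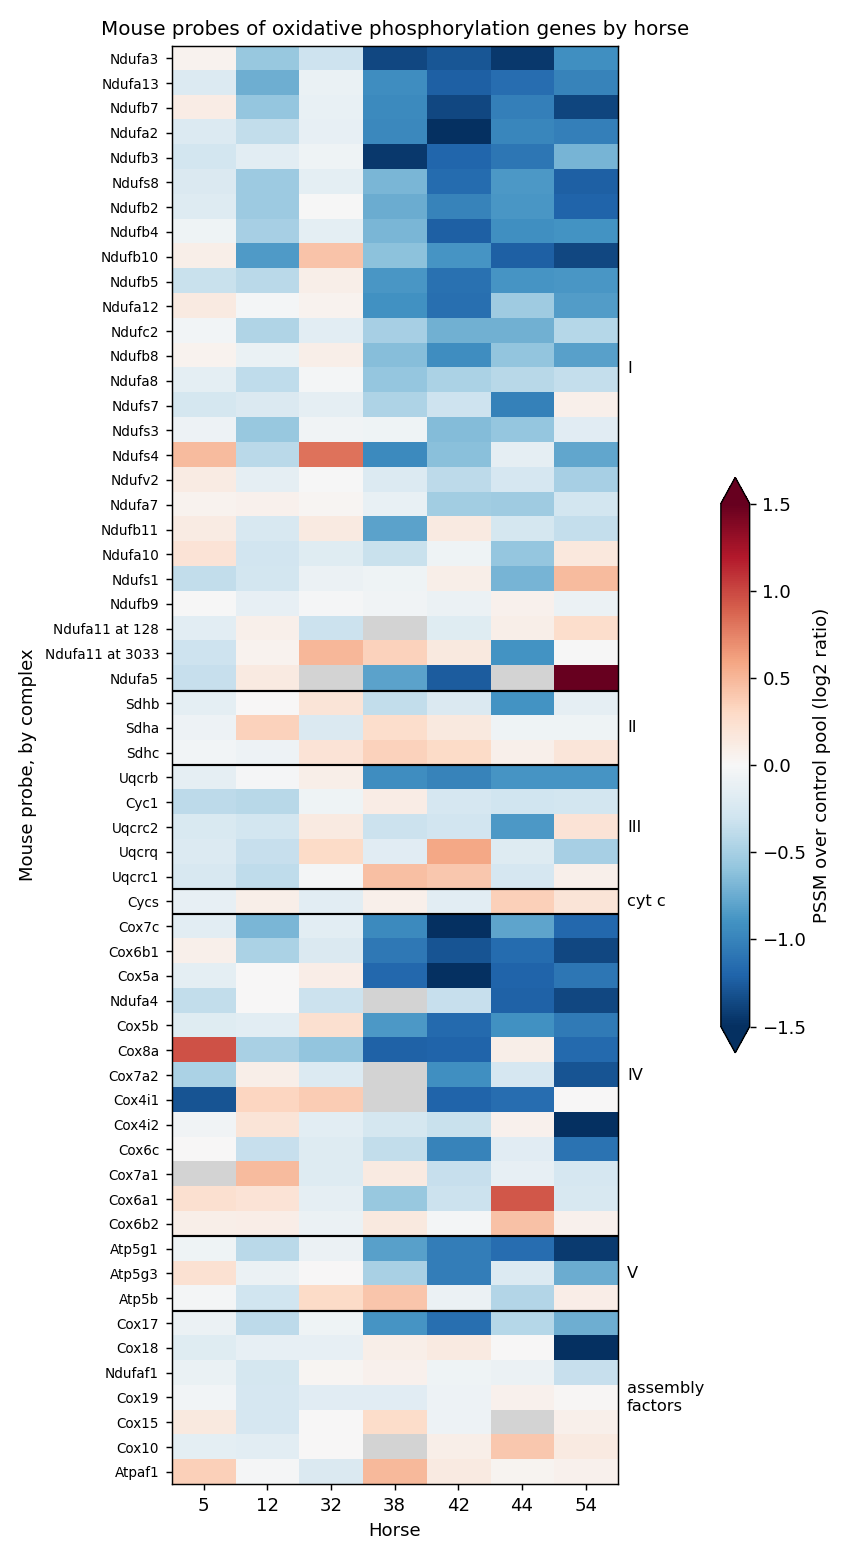
Log2 ratio of PSSM muscle over the control pool for the 58 mouse members (rows, ordered by complex and by mean) in each of the 7 horses (columns). Blue is lower and red is higher in PSSM muscle, the color scale ends at 1.5 in both directions, and grey cells have no value. The blue cells gather in horses 38, 42, 44 and 54, which were set apart by these values. Within each complex the lower means stand in the upper rows because of the ordering.

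Differences between horses were tested by setting the spread between horses against the spread between the microarrays of a horse, once a common dye effect was taken out, in probes with a value on all 14 microarrays. This test was chosen after the pattern of the horses had been seen, so it describes that pattern and is no independent support for it. With limma's adjusted p under 0.05, the horses differed in 6 of 13 equine members (46.2%), against 30.1% of all equine probes, and in 18 of 42 mouse members (42.9%), against 12.7% of all mouse probes. By complex, they differed in 11 of 21 mouse members of complex I, 6 of 8 of complex IV, 1 of 4 of complex III and 0 of 3 of complex II. A difference between horses and a difference between their pairs of hybridizations cannot be told apart, since each horse was hybridized in its own pair.

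The pattern of the horses was also read in each dye orientation, and it was not the same in both. With PSSM muscle in Cy3, the median over all members was -0.06, -0.23 and -0.06 in horses 5, 12 and 32 and -0.38, -0.51, -0.39 and -0.22 in horses 38, 42, 44 and 54. With PSSM muscle in Cy5 it was -0.10, -0.26 and -0.05 in the first 3 and -0.54, -0.62, -0.57 and -0.93 in the others. In the Cy5 orientation the microarray of horse 54 stood apart from the rest, with a median of -0.26 and an SD of 2.11 over all its probes. In Cy3 horse 54 lay beside horse 12 on all members (-0.22 against -0.23) and on the mouse members (-0.13 against -0.15). By these medians, its place among the low horses rested on the Cy5 microarray. Single members of horse 54 were low in Cy3 as well, such as equine Atp5l (-1.32) and mouse Ndufa3 (-1.05). Others were not, such as mouse Ndufs1 (0.77). In Cy3, 44 of its 70 member values lay below 0. On the equine members in Cy5, horse 38 (-0.08) lay close to horse 12 (-0.02). On the equine members in Cy3, horses 44 (-0.49) and 54 (-0.45) lay close to horse 12 (-0.43). Levels differed between the orientations (limma adjusted p under 0.05) in 8 of 13 equine members (61.5%) and 20 of 49 mouse members (40.8%), near the shares of all equine (55%) and all mouse probes (38.5%). The orientation means were below 0 in both dyes in 43 of the 71 members, above 0 in both in 6 and opposite in 22.

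**Figure D2:**
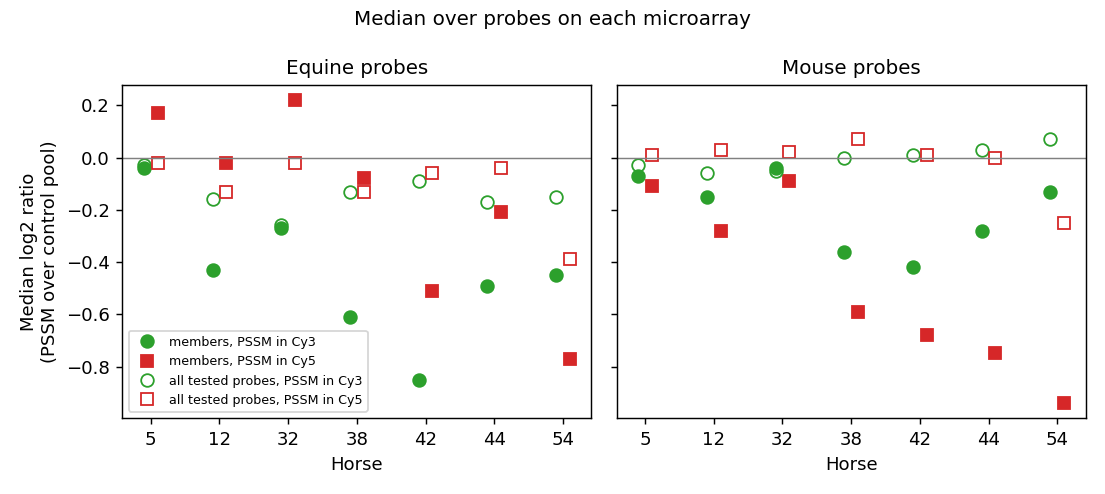
Median log2 ratio (PSSM over control pool) of the members (filled) and of all tested probes (open) on each microarray, for equine probes (left) and mouse probes (right), with PSSM muscle in Cy3 (circles) or Cy5 (squares). The mouse members lay between -0.04 and -0.28 in horses 5, 12 and 32 in either dye. In horse 54 they reached -0.94 with PSSM muscle in Cy5 and were at -0.13, within that range, in Cy3. In horse 44 they were at -0.28 in Cy3, at the edge of that range.

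Complex I, the entry of NADH electrons, had 26 mouse members, of which 1 was down-regulated, 0 were up-regulated and 25 had means below 0. Their median was -0.38. Ndufa13, an accessory subunit of the membrane arm that is also known as a cell death regulator (GRIM-19), was the member that passed. It ranged from -1.22 (horse 42) over a median of -0.93 to -0.10 (horse 32). All 7 horses lay below 0, horses 5 and 32 close to it. The mean was -0.76 ± 0.45 (SD, n = 7), a 1.69-fold lower level (limma adjusted p = 0.0447; exact sign-flip p = 0.0156, the smallest that 7 horses can give). Leaving out horse 12, 38, 42, 44 or 54 in turn ended the call, with means from -0.87 to -0.68 over all 7 omissions and a highest adjusted p of 0.128.

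Ndufa3, another small accessory subunit of the membrane arm, had the lowest mean of all members. Its values ran from -1.45 (horse 44) over a median of -0.92 to 0.05 (horse 5). Horses 38, 42 and 44 lay below -1.2, and horse 5 at the level of the pool. The mean of -0.84 ± 0.58 (SD, n = 7; limma adjusted p = 0.0629) did not pass. The orientation means were -0.85 in Cy3 and -0.82 in Cy5.

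Of the 21 accessory members, 1 was down-regulated and the median was -0.43. Ndufb7, which lies on the intermembrane space side, averaged -0.76 ± 0.59 (SD, n = 7), with -0.66 in Cy3 and -0.85 in Cy5. Ndufa2, a subunit of the matrix arm, averaged -0.75 ± 0.54 (SD, n = 7), but -0.20 in Cy3 and -1.30 in Cy5 (adjusted p of the dye effect 0.000242). Ndufb9 stayed within -0.12 and 0.06 in all 7 horses and averaged -0.05 ± 0.06 (SD, n = 7), the smallest spread of all members. Ndufs4, an accessory subunit whose loss causes Leigh syndrome in humans, ran from -0.95 (horse 38) to 0.81 (horse 32). Its orientation means were 0.59 in Cy3 and -1.06 in Cy5, and the mean of -0.23 was -0.11 without the Cy5 value of horse 54.

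The highest means in complex I belonged to Ndufa5, through a single microarray, and to a Ndufa11 probe. Ndufa5, a subunit of the matrix arm, was at the minimum of 5 horses, with values of -0.35, 0.14, -0.80, -1.25 and 3.05 in horses 5, 12, 38, 42 and 54. The mean was 0.16 ± 1.70 (SD, n = 5; limma adjusted p = 0.901). Horse 54 alone was far above the others, from the 1 microarray that stood apart, and without it the mean of the other 4 horses was -0.57 ± 0.60 (SD, n = 4). Ndufa11, a subunit that anchors the membrane arm, was read by 2 probes. The probe numbered 3033 averaged -0.02 ± 0.46 (SD, n = 7) and the other averaged -0.04 ± 0.22 (SD, n = 6), without a call for either.

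The core subunits, which include those that carry the redox centers, were covered by 5 mouse members, all with means below 0 and a median of -0.31. Ndufs8, which binds iron-sulfur clusters near the quinone site, was the lowest. It ran from -1.22 (horse 54) over a median of -0.69 to -0.15 (horse 32), below 0 in all 7 horses. The mean was -0.69 ± 0.42 (SD, n = 7), just short of the threshold (limma adjusted p = 0.052). Ndufs7, Ndufs3, Ndufv2 and Ndufs1, the other core subunits with values, averaged -0.33, -0.31, -0.20 and -0.14 (limma adjusted p = 0.187, 0.156, 0.271 and 0.582). Ndufs1, the largest subunit, was at -0.70 in horse 44 and at 0.47 in horse 54.

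Complex II, which links the citric acid cycle to the chain and has no subunit encoded in the mitochondria, had 3 mouse members without a call and with a median of 0.05. Sdha, the flavoprotein that oxidizes succinate, stayed between -0.22 (horse 32) and 0.35 (horse 12) with a median of -0.06. It averaged 0.05 ± 0.21 (SD, n = 7; limma adjusted p = 0.791). Sdhc, a membrane anchor, averaged 0.14 ± 0.16 (SD, n = 7; limma adjusted p = 0.347) and lay above 0 in 5 of 7 horses. Sdhb, the iron-sulfur subunit, averaged -0.23 ± 0.34 (SD, n = 7; limma adjusted p = 0.342), with its lowest value of -0.90 in horse 44. In horses 38, 42, 44 and 54, where the complex I median was -0.69, -0.80, -0.72 and -0.60, the complex II median was 0.26, 0.15, -0.07 and -0.06. These horses had been set apart by the low values of the members, complex I included. The complex II median rests on 3 probes, with Sdhb at -0.37 in horse 38 and -0.90 in horse 44. A difference between the complexes was not tested.

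Complex III had 5 mouse members, none of them called, with a median of -0.23. Uqcrb, a small subunit that takes part in ubiquinone binding, was the lowest. It ran from -1.0 (horse 42) over a median of -0.88 to 0.09 (horse 32). Horses 38, 42, 44 and 54 lay between -1.0 and -0.88 and horses 5, 12 and 32 between -0.14 and 0.09. The mean was -0.54 ± 0.49 (SD, n = 7; limma adjusted p = 0.123). Cyc1, the heme-bearing cytochrome c1, averaged -0.23 ± 0.19 (SD, n = 7; limma adjusted p = 0.18).

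The core proteins, Uqcrc1 and Uqcrc2, averaged 0.01 ± 0.33 and -0.23 ± 0.35 (SD, n = 7). Uqcrc1 was highest in horses 38 (0.45) and 42 (0.40), horses in which Uqcrb was near its lowest. Uqcrq averaged -0.08 ± 0.38 (SD, n = 7). Cytochrome c itself (Cycs), the soluble carrier between complexes III and IV, ran from -0.16 (horse 42) over a median of 0.08 to 0.36 (horse 44) and averaged 0.04 ± 0.20 (SD, n = 7; limma adjusted p = 0.832).

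Complex IV, cytochrome c oxidase, had 13 mouse members, none of them called, 11 with means below 0 and a median of -0.51. The redox centers of this complex lie on subunits encoded in the mitochondria, and the nuclear subunits surround them. Cox7c ran from -1.58 (horse 42) over a median of -0.79 to -0.16 (horses 5 and 32), below 0 in all 7 horses. The mean was -0.79 ± 0.52 (SD, n = 7), a 1.72-fold lower level that did not pass (limma adjusted p = 0.0562). Cox6b1, which faces the intermembrane space, ran from -1.36 (horse 54) over a median of -1.07 to 0.08 (horse 5). Horses 38, 42, 44 and 54 lay between -1.36 and -1.07. The mean was -0.78 ± 0.57 (SD, n = 7; limma adjusted p = 0.0743), with -0.77 in Cy3 and -0.80 in Cy5.

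Cox5b, the zinc-binding subunit, gave values of -0.18, -0.16 and 0.24 in horses 5, 12 and 32 and -0.86, -1.17, -0.91 and -1.06 in horses 38, 42, 44 and 54. The mean was -0.58 ± 0.54 (SD, n = 7; limma adjusted p = 0.126). Cox5a, its partner in name, averaged -0.72 ± 0.68 (SD, n = 7; limma adjusted p = 0.125) but differed between the dyes, with -0.05 in Cy3 and -1.38 in Cy5. Ndufa4, named for complex I and since placed in complex IV, averaged -0.60 ± 0.55 (SD, n = 6; limma adjusted p = 0.148). Its 6 values with PSSM muscle in Cy3 averaged -0.29 and its 3 in Cy5 -1.33, and without the Cy5 value of horse 54 (-2.65) the mean was -0.39.

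Several subunits of complex IV exist as isoforms of different genes, none of which was called, and differences between isoforms were not tested. Cox7a1, the form typical of heart and skeletal muscle, averaged -0.05 ± 0.30 (SD, n = 6) from 7 microarrays, 6 of them with PSSM muscle in Cy3, and Cox7a2, the form found in most tissues, averaged -0.51 ± 0.51 (SD, n = 6; limma adjusted p = 0.183). Cox6b2, a testis isoform, was at 0.10 ± 0.17 (SD, n = 7), and Cox6a1, the general form, at 0.01 ± 0.50 (SD, n = 7), with its highest value of 0.93 in horse 44. Cox4i1, the regulatory subunit that binds ATP, ran from -1.29 (horse 5) to 0.38 (horse 32). Its values came from 8 microarrays, and in 3 of them the ratio was read as that of a control channel at its lowest signal. Cox4i2, the lung and hypoxia isoform, had such a control in 4 of 10 values and averaged -0.48 ± 1.05 (SD, n = 7; limma adjusted p = 0.449), or 0.06 once the Cy5 orientation of horse 54 was left out.

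Complex V, the ATP synthase, was the complex read on equine probes, with 11 members. Of these, 2 were down-regulated, 0 were up-regulated and 10 had means below 0, with a median of -0.31. Atp5d, the delta subunit of the central stalk, ran from -1.10 (horse 54) over a median of -0.48 to -0.13 (horse 32). All 7 horses lay below 0. The mean was -0.54 ± 0.33 (SD, n = 7), a 1.46-fold lower level (limma adjusted p = 0.0121; exact sign-flip p = 0.0156), and the call held without any one horse, with adjusted p from 0.0111 to 0.0389.

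Atp5h, subunit d of the peripheral stalk, was the other down-regulated member. It ran from -1.09 (horse 54) over a median of -0.79 to 0.18 (horse 5). Horses 38, 42, 44 and 54 lay between -1.09 and -0.79, while horses 5, 12 and 32 lay between -0.23 and 0.18. The mean was -0.54 ± 0.49 (SD, n = 7), a 1.46-fold lower level (limma adjusted p = 0.0426; exact sign-flip p = 0.0469). Leaving out horse 12, 38, 42, 44 or 54 ended this call, with means from -0.66 to -0.45 over the 7 omissions and adjusted p up to 0.101. With PSSM muscle in Cy5 alone, neither Atp5d nor Atp5h passed.

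**Figure D3:**
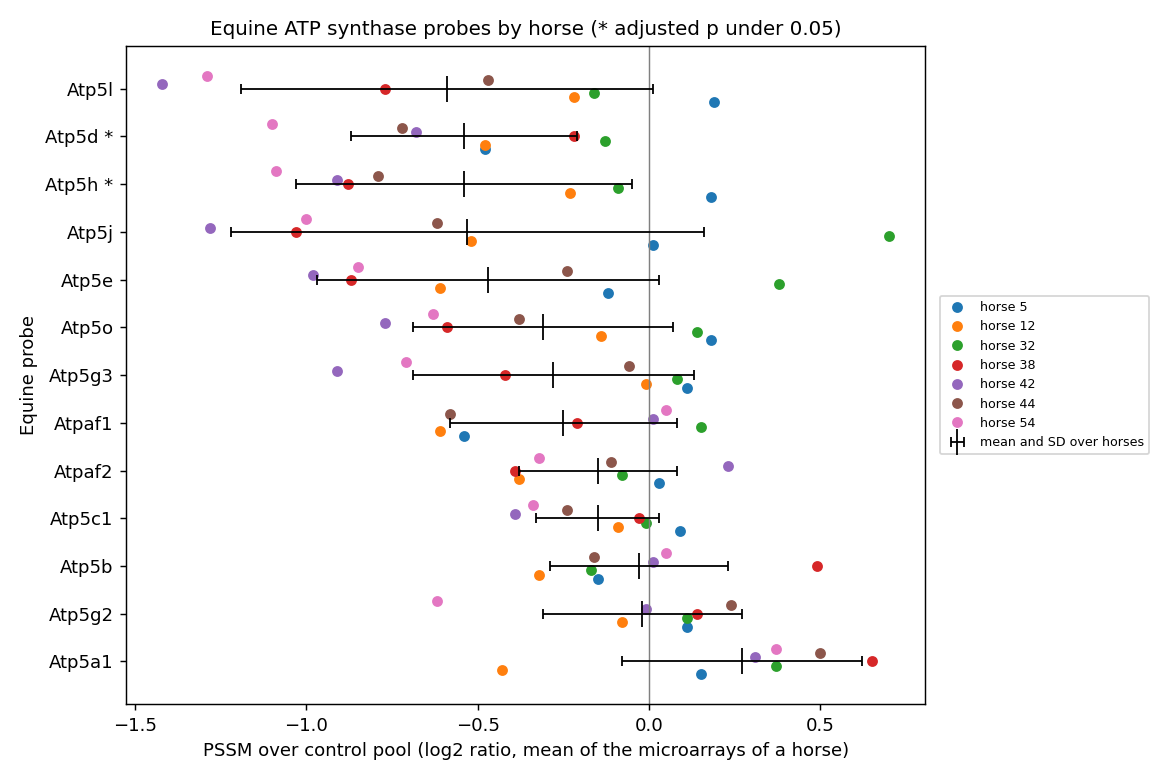
Log2 ratio of PSSM muscle over the control pool for the 13 equine members (rows, by mean), with a point for each of the 7 horses and a bar for the mean and SD over horses. Atp5d and Atp5h, marked with an asterisk, had an adjusted p under 0.05, and Atp5a1 was the one member with a mean above 0.

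The other subunits of the peripheral stalk were not called. Atp5j, coupling factor 6, ran from -1.28 (horse 42) over a median of -0.62 to 0.70 (horse 32) and averaged -0.53 ± 0.69 (SD, n = 7; limma adjusted p = 0.111). It was at -0.06 in Cy3 and -1.01 in Cy5. Atp5o, which confers oligomycin sensitivity and joins the stalk to the catalytic head, ran from -0.77 (horse 42) over a median of -0.38 to 0.18 (horse 5), with a mean of -0.31 ± 0.38 (SD, n = 7; limma adjusted p = 0.125). Atp5l, subunit g of the membrane part, had the lowest equine mean, -0.59 ± 0.60 (SD, n = 7; limma adjusted p = 0.0568), and ran from -1.42 (horse 42) over a median of -0.47 to 0.19 (horse 5).

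The catalytic head is built of alpha and beta subunits around the gamma subunit. Atp5a1, the alpha subunit, was the one equine member with a mean above 0. It ran from -0.43 (horse 12) over a median of 0.37 to 0.65 (horse 38). In 6 of 7 horses it lay above 0, horses 38, 42, 44 and 54 included, and the mean was 0.27 ± 0.35 (SD, n = 7; limma adjusted p = 0.148). Atp5b, the beta subunit that carries the catalytic sites, averaged -0.03 ± 0.26 (SD, n = 7; limma adjusted p = 0.837) and was highest in horse 38 (0.49). Atp5c1, the gamma subunit that turns within the head, averaged -0.15 ± 0.18 (SD, n = 7; limma adjusted p = 0.267). Atp5e, the epsilon subunit of the central stalk, averaged -0.47 ± 0.50 (SD, n = 7; limma adjusted p = 0.0724), with its lowest value of -0.98 in horse 42.

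The c ring, the rotor in the membrane, is encoded by 3 genes, Atp5g1, Atp5g2 and Atp5g3, whose mature proteins are identical and whose transcripts differ. Atp5g1 was read on a mouse probe and ran from -1.44 (horse 54) over a median of -0.81 to -0.07 (horse 5), below 0 in all 7 horses. The mean was -0.72 ± 0.54 (SD, n = 7; limma adjusted p = 0.0789). Atp5g2 was read on an equine probe and averaged -0.02 ± 0.29 (SD, n = 7; limma adjusted p = 0.921). Horses 5, 12, 32, 38, 42 and 44 lay between -0.08 and 0.24 on it, and horse 54 at -0.62. It was one of the members with opposite dye means, -0.44 in Cy3 and 0.41 in Cy5.

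A gene read on both an equine and a mouse probe gives a check on the cross-species probes, and 3 members allowed it. For Atp5g3 the equine probe averaged -0.28 ± 0.41 and the mouse probe -0.34 ± 0.45 (SD, n = 7). Averaged over the dyes, the probes differed by at most 0.15 in any horse. The mean difference was 0.06 ± 0.09 (SD, n = 7; exact sign-flip p = 0.141, unadjusted over the 3 genes). In single orientations they lay farther apart. The equine means were -0.51 in Cy3 and -0.04 in Cy5, and the mouse means -0.21 and -0.46. For Atp5b the equine and mouse means were -0.03 and -0.01, a difference of -0.03 ± 0.23 (SD, n = 7; exact sign-flip p = 0.766), with the widest gap, 0.46, in horse 32. Behind this mouse mean stood opposite orientation means of 1.36 in Cy3 and -1.38 in Cy5. For Atpaf1 the equine probe averaged -0.25 and the mouse probe 0.12, and the difference of -0.36 ± 0.45 (SD, n = 7; exact sign-flip p = 0.0781) reached 0.89 in horse 5.

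**Figure D4:**
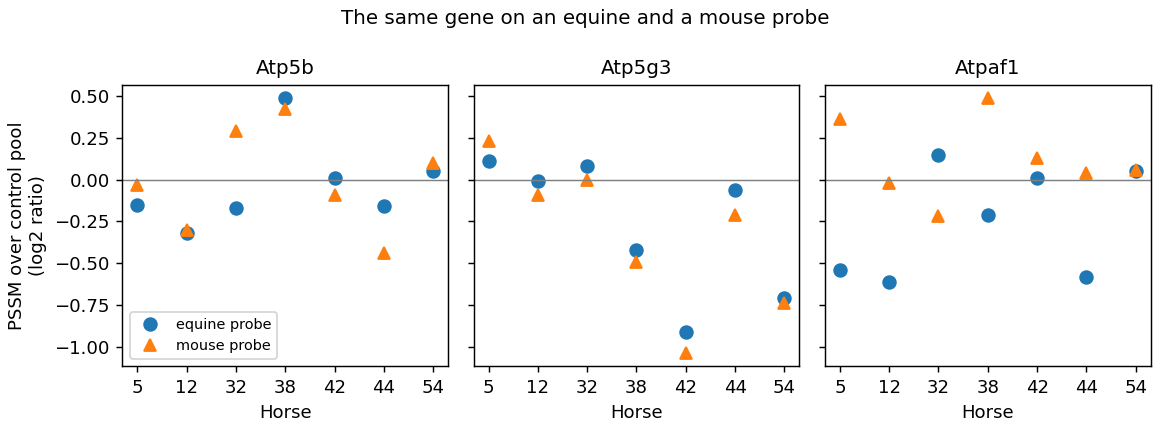
Log2 ratio of PSSM muscle over the control pool in each of the 7 horses for the 3 genes read on both an equine probe (circles) and a mouse probe (triangles). Values are averaged over the dyes. The probes of Atp5g3 lie within 0.15 of each other in every horse, while those of Atpaf1 lie up to 0.89 apart.

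Assembly factors build the complexes and are not part of them. No assembly factor was called among 2 equine and 7 mouse members, whose medians were -0.20 and -0.09. Cox17, which delivers copper to complex IV, was the lowest. It ran from -1.13 (horse 42) over a median of -0.43 to -0.07 (horse 32), below 0 in all 7 horses. The mean was -0.53 ± 0.40 (SD, n = 7; limma adjusted p = 0.0883), from 0.08 in Cy3 and -1.21 in Cy5. Cox18, which helps to insert a mitochondrial subunit into the membrane, averaged -0.49 ± 1.22 (SD, n = 7; limma adjusted p = 0.501). That mean rested on horse 54 (-3.24), and was -0.01 once the Cy5 orientation of that horse was left out. Cox10 and Cox15, the enzymes of heme A synthesis, averaged 0.05 ± 0.21 and 0.03 ± 0.18 (SD, n = 6). The chaperones of the catalytic head, Atpaf1 and Atpaf2, averaged -0.25 ± 0.33 and -0.15 ± 0.23 on the equine probes (SD, n = 7; limma adjusted p = 0.174 and 0.314).

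Among the mouse members, the number at the end of a probe's name went along with the level. In the equine list this number is the place of the probe on its transcript, and for mouse probes that reading is an analogy that was not verified. The 41 mouse members numbered below 600 had a median of -0.49, and the 17 numbered 600 or above a median of -0.11. Over all tested mouse probes these medians were -0.03 and 0.00. The limit of 600 was chosen after the values had been seen, and the part of this number in the values of the members was not tested. All 13 equine members were numbered below 600.

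Of the matching probes, 18 mouse probes had values from fewer than 5 horses and were not tested, among them 5 with none (Cox11, Cox7a2l, Ndufa9, Ndufab1 and Ndufaf2). The 4 with values from 4 horses, just outside the minimum, were Cox7b at a mean of -1.43 ± 1.46, Ndufa6 at -0.69 ± 1.30, Cox7b2 at -0.37 ± 0.68 and Uqcrfs1, the Rieske iron-sulfur protein, at -0.15 ± 0.73 (SD, n = 4). The other 9, from 1 to 3 horses, were Cox6a2, Ndufa1, Ndufv1, Ndufc1, Sdhc, Atpaf2, Sdha, Sdhd and Uqcrh. Cox6a2 is the muscle isoform of its subunit and Ndufv1 binds NADH, so these roles were not covered.

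The partners of these subunits encoded in the mitochondrial genome were read on 26 equine probes. Of these, 12 were down-regulated and 2 up-regulated, with a median of -0.24, where 19.9% and 4.43% of all equine probes were. The 26 probes read 13 genes, and several genes, such as ND5 and ND6, were called on more than 1 probe. Their medians by horse were -0.25, 0.03 and -0.28 in horses 5, 12 and 32 and -0.36, -0.20, -0.22 and -0.50 in horses 38, 42, 44 and 54, ranges that overlap. The electron carriers and coupling proteins (transporters, porins and flavoproteins around the chain) held 0 calls among 13 tested mouse and 4 tested equine probes, with medians of -0.05 and -0.15. The other assembly factors held 0 calls among 6 tested mouse probes (median 0.05). The regulators of mitochondrial biogenesis, among them Ppargc1a, Nrf1 and Tfam, held 0 calls among 10 tested mouse and 2 tested equine probes, with medians of 0.09 and -0.05.

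Markers of other cells were read beside the members. The 8 tested mouse probes of slow fibers, which are rich in mitochondria, held 0 calls. Their medians were 0.49, 0.94 and 0.29 in horses 5, 12 and 32 and -1.60, -0.13, -0.16 and 0.00 in horses 38, 42, 44 and 54. Skeletal muscle markers had medians between -0.27 and 0.23 in every horse on 12 tested mouse probes. On 3 equine probes, of which 1 was down-regulated, their medians were -0.61, -1.10 and -0.13 in horses 5, 12 and 32 and -0.38, -0.07, 0.31 and -0.43 in horses 38, 42, 44 and 54. Fibroblast markers were highest in horse 44, with a median of 2.74 on 6 tested mouse probes, against 1.10 in horse 5, 0.41 in horse 12, -0.10 in horse 32, 0.49 in horse 38, 0.84 in horse 42 and -0.07 in horse 54. On these mouse probes Fn1 was down-regulated. The 3 equine fibroblast probes, FN1 among them, went the other way, with means from 0.28 to 1.65 and a median of 3.37 in horse 44. Of these 3, LUM was up-regulated. Macrophage, adipocyte and endothelial markers held 0 calls among 3, 5 and 3 tested mouse probes. The 3 equine macrophage probes held 0 calls as well, with means from -0.08 to 1.67 and their highest median, 1.11, in horse 44. All 4 tested hepatocyte markers on mouse probes were down-regulated, with a median of -1.43, where 1.36% of all mouse probes were. The 1 tested equine hepatocyte probe averaged 0.20 and was not called. Of the cardiac markers, the 1 equine probe (TNNI3) was down-regulated at -0.32, and the 3 tested mouse probes held 0 calls. The 74 tested mouse probes of cytosolic ribosomal proteins, a list chosen after its values were seen, held 0 calls and had medians of 0.39, 0.38 and 0.29 in horses 5, 12 and 32, of -0.53 and -0.46 in horses 38 and 42, of 0.50 in horse 44 and of -0.69 in horse 54. The part of these cells and lists in the values of the members was not tested.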

How the data were processed

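Muscle RNA of 7 PSSM horses and a pool of 6 controls was amplified in vitro, labelled with Cy3 and Cy5 and hybridized on 14 microarrays with the dyes swapped. The authors quantified the spots with GenePix Pro, normalized them by Lowess in GeneSpring, and deposited natural log (ln) ratios of Cy5 over Cy3. The log base and the lower limit at a ratio of 0.01 were read from the values. The background correction is not given in the sources used here. The microarrays held 7674 to 17071 values (median 12945.5), 58 to 71 of them of members. Their number limits the precision.

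The labels give the dye of each channel. With it every value was expressed as PSSM muscle over the pool, on the log2 scale, and the microarrays of a horse were averaged. Mouse genes were named from the platform annotation, where 13430 of 24109 mouse probes carry 1 symbol, and equine genes from the study's probe list. Where 5 or more horses had a value, the probe was tested with lmFit and eBayes (limma 3.58.1, statmod 1.5.0, R 4.3.3) and by flipping the signs of the horses in all ways (exact, two-sided), whose smallest p is 0.0156 for 7 horses, 0.0312 for 6 and 0.0625 for 5. The t-test named in the methods was run as an alternative beside robust limma, a model of all microarrays, single dyes, centring, filters, joint adjustment, linear means and leaving out each horse. In 22 of the 931 member values (2.36%, against 8.97% of all values) the control channel was taken to hold its lowest signal. This was inferred where 10 times the ratio lies within 0.0002 of a whole number. The values used are ratios, so the signals themselves were not seen. On simulated data for the equine comparison (361 probes), a log2 change of 0.5 was found in 20 of 30 probes and one of 1 in 27 of 30, with 4 false among 51 calls. For the mouse comparison (13067 probes), 32 and 82 of 100 were found, with 3 false among 117 calls.

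The members, gene lists and tests were chosen with earlier results of these data known. Named are all equine members, every mouse member that passed, the 2 highest and 2 lowest mouse members of each complex, of cytochrome c and of the assembly factors, and mouse members of genes with an equine member. Other members were named after their values were seen. Tables were made in Python 3.11.15 (numpy 2.4.6, pandas 2.3.3) and plots in matplotlib 3.10.9.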

Additional observations from a re-analysis of the deposited data

Results flagged for a closer look

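In 3 of the 71 members, each with values from 7 horses, 1 horse was flagged as farther from its neighbor than Dixon's limit for 7 values allows. In each it was horse 54. Chance flags about 1 in 20 groups, a rate that 3 of 71 does not exceed. Equine Atp5g2 was at -0.62 in horse 54, against a mean of 0.08 in the other 6 horses, with -0.69 in Cy3 and -0.55 in Cy5. Mouse Cox18 was at -3.24 in horse 54, against a mean of -0.03 in the others, and the value came from the Cy5 microarray (-6.64, the lower limit of the table), since the Cy3 microarray gave 0.16. Mouse Cox4i2 was at -2.82 in horse 54, against a mean of -0.09 in the others, from -6.64 in Cy5 and 1.0 in Cy3.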

How the results depend on the processing

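The count of down-regulated equine members, 2 in the main setting, was 1 with the methods' t-test after adjustment (16.1% of all equine probes), 4 with a model of all 14 microarrays that holds the dye and a random block for the horse (22.5%), 7 in Cy3 alone (30.0%), 1 with centring on the equine probes (12.5%) and 0 with adjustment over all probes together (10.5%). Without each horse in turn it was 1 to 4 (13.6% to 19.9%), and that of up-regulated equine members was 0 to 1 (Atp5a1 without horse 12). The paper's own list of significant genes holds more equine members than the t-test run here on the horse means. Among them are Atp5l, Atp5e, Atp5o, Atp5j and Atp5c1 as lower and Atp5a1 as higher. The reason for this difference was not tested. The count of down-regulated mouse members, 1 in the main setting, was 0 with the methods' t-test (0.49% of all mouse probes) and with centring on all probes (1.19%), 2 with robust limma (1.48%) and with joint adjustment (1.68%), and 3 with linear means (1.78%) and without values whose control was at its lowest level (2.3%). It was 10 of 50 and 13 of 42 for probes with values from all 7 horses (2.61%) and on all 14 microarrays (4.28%), 20 of 57 with the random block (4.37%), 17 of 57 in Cy3 alone (10.1%) and 23 of 49 in Cy5 alone (10.7%), and 0 to 9 without each horse (0.598% to 2.01%). In alternatives chosen after seeing the data, leaving out the Cy5 microarray of horse 54 gave 6 (1.86%) and leaving out values at the lower limit gave 7 (2.07%). Up-regulated mouse members numbered 3 in Cy3 alone (Atp5b, Atpaf1 and Ndufa7), where 11.2% of all mouse probes were called higher, and 1 with linear means (Atp5b; 1.35%). The single-dye fits mix any dye bias with the difference from the pool. The cause of these shifts was not tested.

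Calls of opposite sign to the mean were found for mouse Atp5b (1.36 in Cy3 alone, 0.58 with linear means), mouse Ndufa7 (0.32 in Cy3 alone) and mouse Atpaf1 (-0.73 in Cy5 alone). Centring on the equine probes moved the median of all mouse probes from -0.01 to 0.11 and the calls over all equine probes from 72 lower and 16 higher to 45 and 38. Over all mouse probes it moved them from 178 and 59 to 163 and 447. No paired analysis was possible because the series has 1 group, with the pool in the other channel. The members read on fewer microarrays, such as Ndufa5, Cox4i1 and Cox4i2, rest on few values. Why their other values are missing was not tested.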
